A study of Mus musculus with 2 samples.

Results

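Growth factor and receptor genes of the blood vessel wall were followed through islets of mice that carry the ghrelin gene (WT) or lack it (GKO, ghrelin gene knockout): the ligand genes Vegfa, Vegfb, Vegfc, Angpt2 and Pdgfb and the receptor genes Flt1, Kdr, Nrp1, Tek and Pdgfrb. The 10 genes were picked by symbol from the 27998 genes in the count tables.
The data are single-cell RNA-Seq of viable islet cells taken by flow sorting, with 1 library per genotype, each made from the pooled islets of 4 littermate mice of the C57BL/6N strain at 8 weeks of age on standard chow. The GKO mice lacked both copies of the ghrelin gene in every cell, and the WT mice carried both. Each droplet has a barcode and each captured transcript a unique molecular identifier (UMI), which counts copies made by PCR once. With 1 library per genotype there are no replicates, so no test between genotypes could be made, and every 95% interval covers counting error only.

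Islets are among the most densely vascularized tissues, and their capillaries are lined by an endothelium with many fenestrae. Endocrine cells secrete VEGF-A, which acts on the tyrosine kinase receptors VEGFR2 (gene Kdr) and VEGFR1 (Flt1) of the endothelium, with neuropilin 1 (Nrp1) as a coreceptor. Endothelial PDGF-B recruits pericytes through PDGFR-β (Pdgfrb) on those cells, and angiopoietin 2 (Angpt2) modulates the endothelial receptor TIE2 (Tek).

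Barcodes were sorted into classes by their own transcripts. A barcode whose Ins1 and Ins2, Gcg, Sst or Ppy UMIs made up at least 10% of its total was called insulin-led, glucagon-led, somatostatin-led or Ppy-led after the most abundant of these hormones. The others were called Plvap-led or Rgs5-led with at least 3 UMIs of Plvap, a protein of the diaphragms of fenestrated endothelium, or of Rgs5, a gene of pericytes. The remaining barcodes were called collagen-led, C1q-led or keratin-led by gene sets of fibroblasts, macrophages and duct cells, or Cd79-led or S100a8/9-led by those of B cells and neutrophils, and what was left stayed unassigned. In WT and GKO there were 2265 and 872 insulin-led, 1048 and 1397 glucagon-led, 1414 and 1003 somatostatin-led and 717 and 669 Ppy-led barcodes. There were 599 and 465 Plvap-led, 235 and 456 Rgs5-led, 236 and 543 collagen-led, 203 and 464 C1q-led and 120 and 118 keratin-led barcodes. The 49 and 61 Cd79-led, 5 and 38 S100a8/9-led and 209 and 260 unassigned barcodes are not described further. The makeup of the 2 libraries thus differed. The levels below are UMIs per 1000000 UMIs of a class (CPM), which do not scale with the number of its barcodes. RNA free in the cell suspension and barcodes of mixed cells can still differ with that makeup. The paper cautions that its β cell data come only from cells that survived sorting, and this limit also holds for the insulin-led barcodes.

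The WT library held 158067110 UMIs in 7792 barcodes and the GKO library 103511757 UMIs in 7289 barcodes, of which 7100 and 6346 passed the limits on gene number and mitochondrial UMIs. As a check of the genotypes, 43634 Ghrl (ghrelin) UMIs were counted in WT and 280 in GKO, with 42984 of the former in 6 barcodes and 276 of the latter in 1 barcode. The libraries had 18 barcode sequences in common. RNA free in the cell suspension had not been removed from the counts, and hormone UMIs made up 1.19% (WT) and 0.657% (GKO) of the UMIs of Plvap-led barcodes.
The labels of the vascular classes were checked against other markers. In Plvap-led barcodes Pecam1, an adhesion molecule of endothelium, had a UMI in 96.8% and 92.3% of barcodes and Cdh5, the cadherin of endothelial junctions, in 93.8% and 89.5%, while Cldn5 had one in 5.01% and 4.09%. In Rgs5-led barcodes Notch3, a receptor of mural cells, had a UMI in 87.2% and 92.3% and Myh11, the smooth muscle myosin, in 78.3% and 81.8%. Of the other mural markers, Des had one in 90.2% and 94.7% and Acta2 in 73.2% and 82.2%. Cspg4 had one in 53.2% and 47.1%, Abcc9 in 46.4% and 46.3% and Kcnj8 in 23.8% and 33.1%. Of the fibroblast markers, Col3a1 had one in 66.0% and 73.9% but Pdgfra in 5.11% and 2.85%. The class thus held mural genes, including those of smooth muscle, and cannot be read as pericytes alone.

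Of the 10 genes, 7 had an entry among the RefSeq promoter sequences of GRCm38.p6. The 120 bases before the start of the endothelial receptor genes and of Vegfa are shown because Flt1, Kdr, Nrp1 and Tek were read mainly in the same class of barcodes. Vegfa has a second start among these sequences, with the window chr17:46025164-46025283 before it. Sequences run 5′ to 3′ on the strand of the gene, and capitals mark GGAAG or its reverse complement. GGAAG is a form of the GGAA core read by ETS factors of endothelial genes. GGAA followed by another base was neither marked nor counted, and it or its reverse complement is present in the Flt1, Kdr, Tek and Vegfa sequences shown.
Flt1, chr5:147726012-147726131, minus strand: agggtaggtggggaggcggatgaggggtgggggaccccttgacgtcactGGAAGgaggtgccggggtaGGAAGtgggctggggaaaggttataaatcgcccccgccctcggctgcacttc
Kdr, chr5:75978456-75978575, minus strand: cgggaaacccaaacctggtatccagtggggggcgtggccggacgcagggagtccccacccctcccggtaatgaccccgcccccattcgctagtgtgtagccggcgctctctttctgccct
Tek, chr4:94739169-94739288, plus strand: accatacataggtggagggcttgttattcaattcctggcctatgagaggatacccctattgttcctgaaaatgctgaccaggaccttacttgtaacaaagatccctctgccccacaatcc
Nrp1, chr8:128358953-128359072, plus strand: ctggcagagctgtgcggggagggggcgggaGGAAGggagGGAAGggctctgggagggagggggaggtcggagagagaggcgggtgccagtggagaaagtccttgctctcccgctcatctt
Vegfa, chr17:46032378-46032497, minus strand: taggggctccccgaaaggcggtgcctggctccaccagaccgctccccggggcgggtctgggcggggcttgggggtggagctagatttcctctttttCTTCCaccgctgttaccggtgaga
In the 250 bases before each start, GGAAG on either strand was found 3 times for Flt1, 3 times for Nrp1, 1 time for Kdr, 1 time for each start of Vegfa and 0 times for Tek. It occurred in 64.1% of all 32851 such windows, so its presence does not set these genes apart. TATAAA was found in the Flt1 window and in 12.4% of all windows. ACGTG, a form of the core of hypoxia response elements, was found 1 time before the second start of Vegfa, in none of the other 5 windows and in 16.6% of all. GCGTG, the other form of this core, was not counted and is present in the Kdr sequence shown. Kdr and Flt1 had 16 and 23 CpG dinucleotides in the window and Tek had 2.

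Vegfa and Vegfb were read mainly in endocrine barcodes, most of the other genes mainly in vascular barcodes, and Vegfc mainly in neither. Endocrine barcodes held 92.8% of the Vegfa UMIs in WT and 87.7% in GKO, and 89.6% and 75.8% of the Vegfb UMIs. Plvap-led barcodes held 90.6% and 93.9% of the Flt1 UMIs, 90.9% and 92.8% of the Kdr UMIs, 89.0% and 86.4% of the Tek UMIs and 82.0% and 70.9% of the Nrp1 UMIs. Rgs5-led barcodes held 61.2% and 70.9% of the Pdgfrb UMIs. The Vegfc UMIs were divided, with 45.2% and 33.5% in endocrine, 25.1% and 23.8% in Plvap-led and 24.5% and 32.1% in collagen-led barcodes. Angpt2 had 39.6% and 23.1% of its UMIs in endocrine, 40.7% and 35.2% in Plvap-led and 18.0% and 37.1% in Rgs5-led barcodes. These shares follow the size and depth of the classes as well as the level per UMI: insulin-led barcodes held 53.0% of the Vegfa UMIs in WT and 33.2% in GKO although their Vegfa level was higher in GKO.

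**Figure D1:**
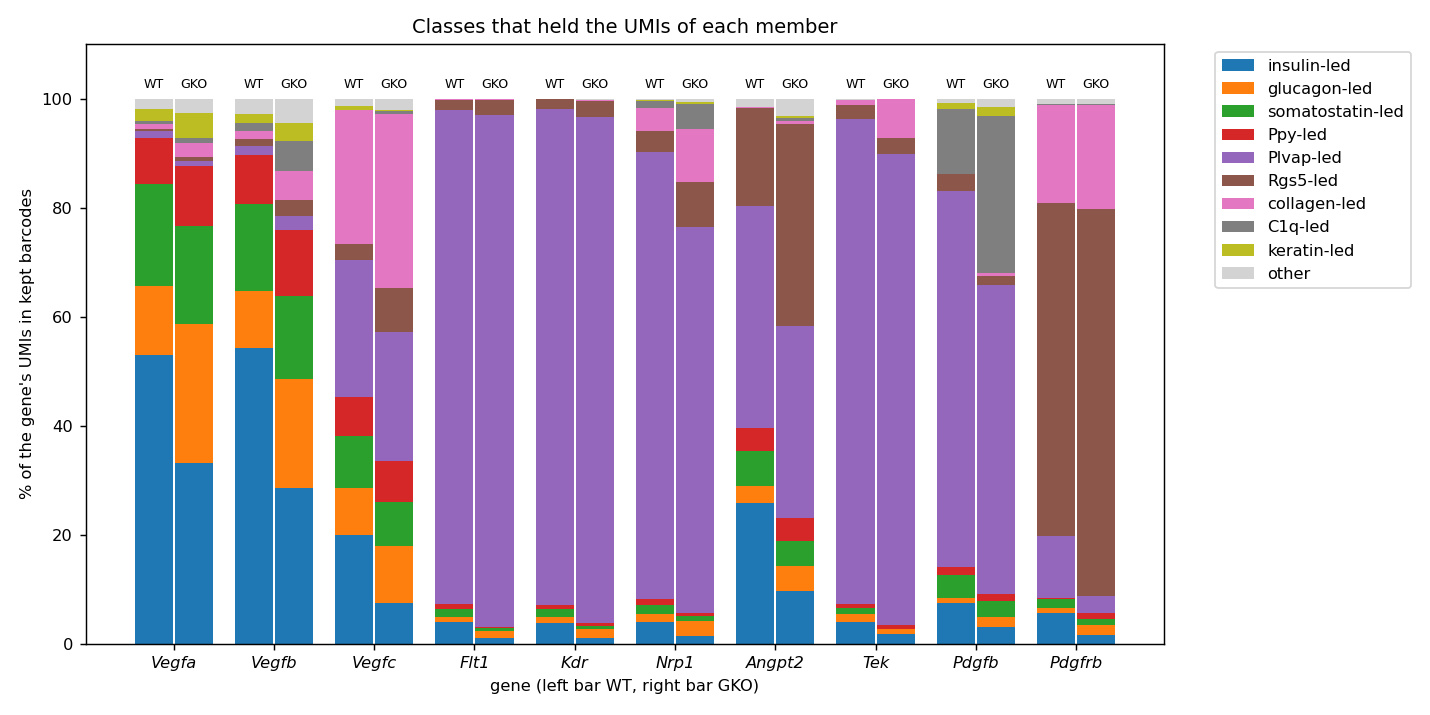
Share of the UMIs of each gene (y axis, % of its UMIs in kept barcodes) held by each class of barcodes, with the left bar of each pair for WT and the right bar for GKO. Endocrine classes hold most Vegfa and Vegfb, Plvap-led barcodes hold 90.6% to 93.9% of Flt1 and Kdr, and Rgs5-led barcodes hold 61.2% and 70.9% of Pdgfrb.

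Vegfa (ENSMUSG00000023951, chromosome 17, 46016993 to 46032369, minus strand, GRCm38) encodes the main growth factor of islet capillaries. Among endocrine classes its level was highest in somatostatin-led barcodes, with 116 CPM in WT (95% interval 111 to 121) and 126 CPM in GKO (119 to 132). Glucagon-led barcodes followed with 90.3 (85.5 to 95.3) and 104 CPM (99.2 to 108), then insulin-led barcodes with 61.7 (60.1 to 63.3) and 77.3 CPM (74.3 to 80.4) and Ppy-led barcodes with 51.3 (48.0 to 54.8) and 54.1 CPM (50.5 to 57.9). The intervals of these 4 classes did not overlap within either library, and the order was the same in both. Hormone UMIs made up 61.3% and 59.2% of the total in insulin-led but 22.4% and 22.0% in somatostatin-led barcodes. A larger hormone share lowers the CPM of every other gene. The order is thus shown only for CPM over all UMIs. With hormone UMIs left out of the total, Vegfa in insulin-led barcodes stood at 146 (WT) and 217 CPM (GKO) where insulin made up 10 to 25% of UMIs. It stood at 191 and 234 CPM at 25 to 60% insulin and at 172 and 192 CPM at 60 to 100%. These values lie above the 116 and 126 CPM of somatostatin-led barcodes over all UMIs, which would also rise on this scale. The order of insulin-led and somatostatin-led barcodes may thus differ there, which was not tested. Keratin-led barcodes had 99.0 CPM in WT (86.6 to 113), an interval that overlapped that of glucagon-led barcodes, and 179 CPM in GKO (161 to 199), above every other class. Collagen-led barcodes had 41.2 and 40.9 CPM, and the Plvap-led, Rgs5-led and C1q-led barcodes had 14.9 to 24.6 CPM.

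The Vegfa level was higher in GKO than in WT in all 4 endocrine classes, by log2 ratios of 0.33 in insulin-led (95% interval 0.26 to 0.39), 0.20 in glucagon-led (0.10 to 0.30), 0.12 in somatostatin-led (0.02 to 0.22) and 0.08 in Ppy-led barcodes (−0.06 to 0.21). The interval of the last includes 0. The median log2 ratio over all genes was 0.09, 0.05, 0.03 and 0.06 in these classes, so the excess over the typical gene was smaller than the ratios themselves. None of the 4 reached 0.5, the size used here to count genes. In insulin-led barcodes the ratio was lowest, at 0.23, with TMM scaling of the class sums. It was highest, at 0.71 (0.43 to 1.00), with each barcode thinned to 2000 UMIs, where 266 and 168 Vegfa UMIs were left. Thinning drew UMIs at random and was not repeated, and only 1 of 9 alternatives, the thinned one, passed 0.5. Without barcodes that held a second hormone or a marker UMI of another cell type the ratio was 0.49 (0.34 to 0.65).

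Single barcodes held few Vegfa UMIs. The median was 2 UMIs in insulin-led barcodes of both libraries, with an upper quartile of 3 in WT and 4 in GKO and a maximum of 16 and 19. A Vegfa UMI was found in 86.4% of insulin-led barcodes in WT and 89.6% in GKO, at median depths of 37124 and 35811 UMIs. After thinning to 2000 UMIs the shares were 11.3% (10.0 to 12.6) and 17.7% (15.2 to 20.4), from the same random draw as the thinned ratio above. In C1q-led barcodes, taken as a class low in Vegfa, the thinned shares were 2.96% and 1.95% and the unthinned shares 8.87% and 7.33%, at median depths of 10361 and 9070.5 UMIs. The tenth of insulin-led barcodes with the most Vegfa held 27.4% and 26.3% of its UMIs, so the transcript was spread over the class in both libraries rather than held by a few barcodes.

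Insulin transcripts take up much of the total of an insulin-led barcode, so Vegfa was also read by insulin share. Where Ins1 and Ins2 made up 10 to 25% of UMIs, Vegfa had 95.8 CPM in 53 WT barcodes and 139 CPM in 37 GKO barcodes. At 25 to 60% insulin, WT barcodes had 80.5 CPM and GKO barcodes 101 CPM, and at 60 to 100% insulin it was 49.0 and 57.0 CPM. The level was higher in GKO in each of the 3 ranges, without overlap of the intervals. Per 1000000 UMIs outside the hormone genes, Vegfa had 191 (184 to 199) in WT and 234 (221 to 247) in GKO at 25 to 60% insulin and 172 (165 to 178) and 192 (180 to 204) at 60 to 100%. On this second scale the ranges of insulin share lay closer together, and the difference between the libraries was present on both scales.

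**Figure D2:**
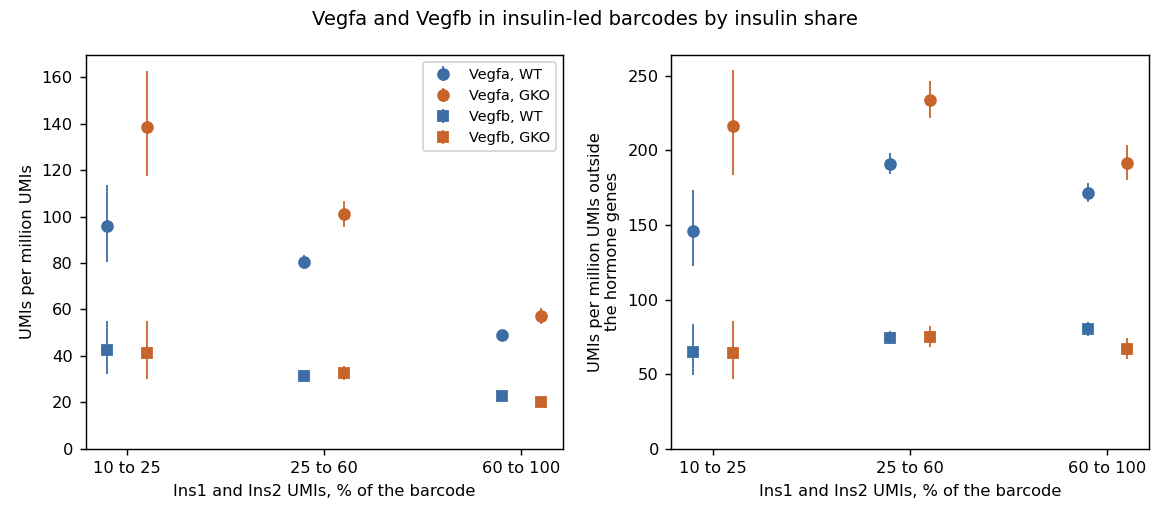
Vegfa (circles) and Vegfb (squares) in insulin-led barcodes by the share of insulin UMIs (x axis, %), per 1000000 UMIs (left) and per 1000000 UMIs outside the hormone genes (right), with 95% Poisson intervals. Vegfa is higher in GKO than in WT in all 3 ranges, with 101 against 80.5 CPM in the middle one, while the Vegfb intervals overlap except at 60 to 100% insulin in the right panel, where GKO is lower (67.2 against 80.2).

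Vegfb (ENSMUSG00000024962, chromosome 19, 6982473 to 6987651, minus strand) encodes a ligand of VEGFR1 and was the most even of the 10 genes across classes. Its level ran from 12.8 CPM in WT Plvap-led barcodes to 51.7 CPM in GKO keratin-led barcodes. In the 4 endocrine classes it differed little between libraries, with log2 ratios from −0.04 to 0.03 and intervals that included 0. Insulin-led barcodes had 26.4 CPM in WT (25.3 to 27.5) and 25.7 CPM in GKO (24.0 to 27.5), which bounds their log2 ratio to between −0.16 and 0.07. After thinning to 2000 UMIs, where 149 and 34 Vegfb UMIs were left, that ratio was −0.76 (−1.34 to −0.21). Per 1000000 UMIs outside the hormone genes, Vegfb at 60 to 100% insulin was lower in GKO, at 67.2 (60.5 to 74.4) against 80.2 (75.8 to 84.8) in WT, while the intervals overlapped in the other ranges.
Within the insulin-led class Vegfa and Vegfb, 2 ligands of the same family, thus stood apart: the Vegfa interval lay above 0 and the Vegfb interval included it. Whether the ratios of the 2 genes differ between mice was not tested.

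In keratin-led barcodes both ligands were higher in GKO, Vegfa by a log2 ratio of 0.86 (0.61 to 1.10) and Vegfb by 0.79 (0.33 to 1.25), from 30.0 to 51.7 CPM. Here 23.3% of the 6008 genes with at least 100 UMIs over both libraries were past a log2 ratio of 0.5 in size and the median gene stood at 0.18, so this class differed broadly between the libraries. The 6 acinar enzyme genes had a summed level of 10110 CPM in WT and 204 CPM in GKO in these barcodes. Without the barcodes in which acinar genes exceeded 1% of UMIs the Vegfa ratio was 0.79 and the Vegfb ratio 0.72. Of the 11 further family genes described below, 3 of the 4 measured here were past 0.5, all higher in GKO: Pdgfd (27.8 and 64.5 CPM, 1.21), Angpt1 (17.4 and 33.8 CPM, 0.96) and Pdgfa (119 and 213 CPM, 0.84). With each barcode thinned to 2000 UMIs the Vegfa ratio was −0.058 (−0.78 to 0.66), from 36 and 34 UMIs.

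Vegfc (ENSMUSG00000031520, chromosome 8, 54077606 to 54187096, plus strand) encodes a ligand of VEGFR3 and VEGFR2 known for lymphatic growth. Its level was highest in collagen-led barcodes, with 78.1 CPM in WT (67.2 to 90.2) and 56.3 CPM in GKO (49.8 to 63.5), and next highest in Plvap-led barcodes, with 34.7 CPM (29.9 to 40.0) and 48.5 CPM (42.0 to 55.8). Rgs5-led barcodes had 15.2 and 23.8 CPM, and the endocrine classes 1.68 to 6.10 CPM. The library with the higher level was WT in collagen-led barcodes (log2 ratio −0.47, −0.75 to −0.19) and GKO in Plvap-led barcodes (0.48, 0.19 to 0.78). In somatostatin-led barcodes the ratio was 0.52 (0.02 to 1.02) from 71 and 67 UMIs. At 2000 UMIs a Vegfc UMI was found in 5.24% and 7.61% of Plvap-led barcodes and in 0% and 0.216% of C1q-led barcodes. The tenth of Plvap-led barcodes with the most Vegfc held 81.0% and 77.8% of its UMIs in the class, so this ligand was read in a minority of them.

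**Figure D3:**
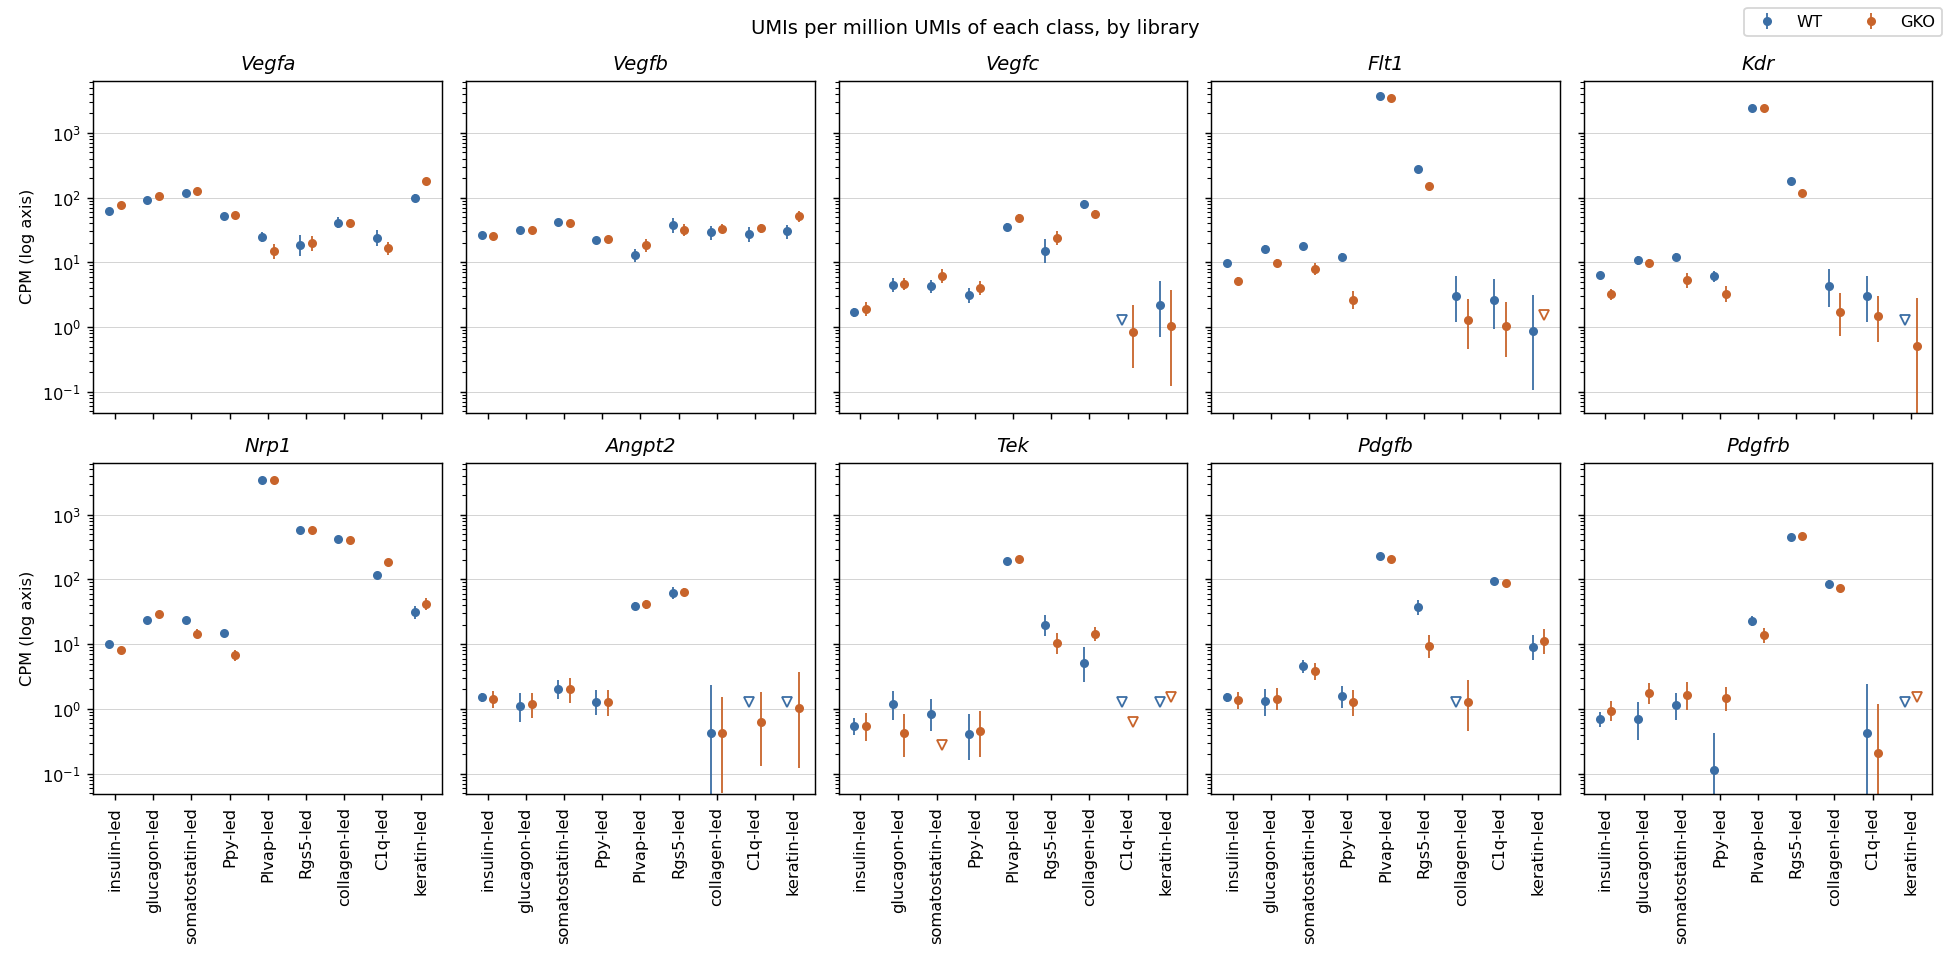
Level of each gene (y axis, CPM, log axis) in 9 classes of barcodes in WT (blue) and GKO (orange), with exact 95% Poisson intervals; open triangles stand at the level of 3 UMIs where no UMI was found. Vegfa and Vegfb are spread over all classes, whereas Flt1, Kdr and Tek peak in Plvap-led and Pdgfrb in Rgs5-led barcodes.

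Flt1 (ENSMUSG00000029648, chromosome 5, 147561604 to 147726011, minus strand) encodes VEGFR1, also made as a soluble decoy that 3′ counting summed by gene does not separate. In Plvap-led barcodes it had 3683 CPM in WT (3633 to 3735) and 3490 CPM in GKO (3433 to 3548), a log2 ratio of −0.08 (−0.11 to −0.05). Kdr (ENSMUSG00000062960, chromosome 5, 75932827 to 75978458, minus strand), the main signaling receptor for VEGF-A, had 2429 CPM (2388 to 2471) and 2397 CPM (2350 to 2445), a ratio of −0.02 (−0.06 to 0.02). Nrp1 (ENSMUSG00000025810, chromosome 8, 128358604 to 128503363, plus strand) had 3486 CPM (3436 to 3536) and 3396 CPM (3340 to 3453), a ratio of −0.04 (−0.07 to −0.01). The VEGF receptors of the Plvap-led class thus lay close between the libraries, with ratios no larger than 0.08 in size. These ratios moved with the limit that defines the class: with at least 1 Plvap UMI, which gave 649 WT and 601 GKO barcodes, they were −0.31 (Flt1), −0.25 (Kdr) and −0.24 (Nrp1), and with at least 10 Plvap UMIs they were 0.0034, 0.063 and 0.047. The sign of these ratios thus depended on that limit.

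The receptors were read together in the same barcodes. Plvap-led barcodes held a median of 26 Flt1 UMIs in WT and 25 in GKO, 17 Kdr UMIs in both and 25 Nrp1 UMIs in both. After thinning to 2000 UMIs, Kdr and Flt1 were both found in 91.6% of WT barcodes (89.0 to 93.7) and 88.9% of GKO barcodes (85.7 to 91.6), Flt1 without Kdr in 4.05% and 3.48%, and neither gene in 3.89% (2.48 to 5.77) and 6.96% (4.81 to 9.68). The barcodes with neither gene were few in both libraries, and the intervals of their shares overlapped. Kdr without Flt1 was found in 0.507% and 0.652%. Kdr, with or without Flt1, was found at 2000 UMIs in 92.1% and 89.6% of Plvap-led barcodes against 0.985% and 0.433% of C1q-led barcodes. The unthinned shares were 96.2% and 92.3% against 1.97% and 1.51%, and Plvap-led barcodes had median depths of 7210 and 7549 UMIs. The fibroblast genes of the marker list summed to 1079 CPM in WT and 2066 CPM in GKO Plvap-led barcodes, and their part in the ratios was not tested.

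Tek (ENSMUSG00000006386, chromosome 4, 94739289 to 94874976, plus strand), the angiopoietin receptor TIE2, had 194 CPM in WT Plvap-led barcodes (182 to 206) and 205 CPM in GKO (191 to 219), a log2 ratio of 0.08 (−0.05 to 0.21). It was found at 2000 UMIs in 35.0% and 31.7% of these barcodes and at full depth in 72.0% and 74.0%. No Tek UMI was seen in C1q-led or keratin-led barcodes of either library, where 3 UMIs would be 0.631 to 1.54 CPM. Collagen-led barcodes held 12 Tek UMIs in WT and 69 in GKO, or 5.09 CPM (2.63 to 8.90) and 14.6 CPM (11.3 to 18.4), in 2.12% and 6.81% of barcodes. In somatostatin-led barcodes 14 UMIs were counted in WT and 0 in GKO, where 3 UMIs would be 0.273 CPM. Of the 14, 13 were in the 16 WT barcodes of this class with at least 3 Plvap UMIs, which left 1 UMI in the rest.

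Pdgfb (ENSMUSG00000000489, chromosome 15, 79995874 to 80014977, minus strand) encodes the PDGF-B chain. Plvap-led barcodes had 230 CPM in WT (217 to 243) and 203 CPM in GKO (190 to 217), a log2 ratio of −0.18 (−0.31 to −0.05) that stayed negative under every alternative, between −0.39 and −0.09. The next highest level was in C1q-led barcodes, with 93.0 CPM (81.1 to 106) and 89.2 CPM (80.9 to 98.2) and a ratio of −0.06 (−0.30 to 0.18). At 2000 UMIs a Pdgfb UMI was found in 37.5% and 33.3% of Plvap-led and in 14.8% and 13.0% of C1q-led barcodes, but in 0% and 0.397% of collagen-led barcodes. Because the GKO library had more C1q-led barcodes, they held 28.9% of its Pdgfb UMIs against 11.9% in WT.

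Angpt2 (ENSMUSG00000031465, chromosome 8, 18690263 to 18741562, minus strand) was read in both vascular classes. Its level was 39.1 CPM in WT (34.0 to 44.7) and 41.2 CPM in GKO (35.2 to 47.9) in Plvap-led barcodes and 62.1 CPM (50.2 to 76.1) and 63.7 CPM (54.7 to 73.8) in Rgs5-led barcodes. The log2 ratios were 0.07 (−0.23 to 0.37) and 0.04 (−0.33 to 0.41). In both libraries the intervals of the 2 classes did not overlap. In the other 7 classes compared Angpt2 stayed at or below 2.03 CPM.
Angpt2 was unevenly held within each vascular class. Among Rgs5-led barcodes, those with a Myh11 UMI had 74.9 CPM in WT (60.1 to 92.1) and 72.6 CPM in GKO (62.1 to 84.4), against 15.4 (5.02 to 36.0) and 16.0 CPM (6.44 to 33.0) in those without. The same split left Pdgfrb nearly even, with 448 and 475 CPM with a Myh11 UMI and 436 and 428 CPM without. This split was chosen after its values were seen. Barcodes with a Myh11 UMI were also deeper, with median totals of 5318.5 and 5666 UMIs against 4352 and 4031.

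Among Plvap-led barcodes of at least 2000 UMIs, 125 in WT and 93 in GKO held an Angpt2 UMI. Thinned to 2000 UMIs, Esm1, a secreted proteoglycan core of VEGF-stimulated endothelium, was found in 93.6% (87.8 to 97.2) and 91.4% (83.8 to 96.2) of these against 76.4% (72.3 to 80.2) and 67.0% (62.0 to 71.8) of the barcodes without Angpt2. Dll4, the Notch ligand of tip cells, was found in 41.6% and 35.5% against 23.3% and 19.9%. Apln, an apelin gene of tip cells, was found in 10.4% against 2.14% in WT but in 5.38% against 5.99% in GKO. The intervals of Esm1 and of Dll4 did not overlap in either library. Among the other genes of the list of 12, Cxcr4 was found in 12.8% against 4.50% in WT and in 4.30% against 3.81% in GKO, and Ptprb in 84.0% against 84.2% and in 93.5% against 82.3%. Ephb4 went the other way, with 8.0% against 16.5% in WT and 12.9% against 19.3% in GKO, as did Aplnr in GKO with 7.53% against 14.2%. Efnb2 (31.2% against 35.8% and 30.1% against 30.2%) and Nos3 (9.60% against 10.9% and 8.60% against 8.72%) were close. The list thus did not move as one with Angpt2. Outside the list, Kdr was also found more often with Angpt2, in 96.8% against 90.8% in WT and 100% against 86.9% in GKO. So was Flt1, in 97.6% against 95.1% and 98.9% against 90.7%, and Nrp1, in 99.2% against 95.9% and 100% against 91.3%. Tek was found less often, in 30.4% against 36.2% and 19.4% against 34.9%. Barcodes with a Pdgfb UMI also held Esm1 more often than those without, in 83.2% against 70.0% in WT and 80.3% against 53.2% in GKO. Those with a Tek UMI did too, in 81.2% against 77.2% and 76.1% against 59.8%. Barcodes with a Vegfc UMI went the other way, with Esm1 in 53.1% against 85.3% in WT and 43.3% against 78.9% in GKO. The higher share of Esm1 was thus not particular to Angpt2, nor was it shared by every such split. The Apln shares in barcodes with Angpt2 rest on 13 (WT) and 5 (GKO) barcodes, the genes described here were chosen after their values were seen, and no difference was tested. Barcodes with Angpt2 were deeper, with medians of 10608 and 9454 UMIs against 6799 and 6963 before thinning.

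Pdgfrb (ENSMUSG00000024620, chromosome 18, 61045150 to 61085061, plus strand), the receptor for PDGF-B, had 446 CPM in WT Rgs5-led barcodes (413 to 481) and 468 CPM in GKO (443 to 494), a log2 ratio of 0.07 (−0.07 to 0.21). The median was 2 UMIs per barcode in both, and a UMI was found in 86.4% and 89.5% of barcodes, or 60.6% and 62.3% at 2000 UMIs, against 0% in C1q-led barcodes thinned alike. With equal weight for each barcode the ratio was −0.11, so its sign depended on the weighting. Collagen-led barcodes had 84.0 CPM (72.7 to 96.6) and 74.0 CPM (66.5 to 82.2), a ratio of −0.18 (−0.44 to 0.08).
In Plvap-led barcodes Pdgfrb had 22.8 and 14.0 CPM, in 5.01% and 5.16% of barcodes. That ratio of −0.70 became 0.65 without barcodes that held an Rgs5 UMI or over 5% hormone UMIs, where 23 and 29 UMIs were left.

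Nrp1 was the receptor read most widely. Beyond the Plvap-led class it had 582 CPM in WT (544 to 622) and 575 CPM in GKO (547 to 604) in Rgs5-led barcodes, and 418 (392 to 445) and 404 CPM (386 to 423) in collagen-led barcodes. The log2 ratios were −0.02 and −0.05, with intervals that included 0. In C1q-led barcodes Nrp1 had 116 CPM in WT (103 to 131) and 188 CPM in GKO (176 to 201), a ratio of 0.70 (0.50 to 0.90). It was found in 60.6% of WT and 70.3% of GKO barcodes of this class, and at 2000 UMIs in 21.7% (16.2 to 28.0) and 35.1% (30.7 to 39.6). Flt1 and Kdr in the same barcodes stood at 1.05 to 3.00 CPM, and the 8 endothelial markers summed to 18.4 and 18.5 CPM. The Nrp1 ratio stayed between 0.58 and 0.96 under all 10 alternatives. In this class 13.9% of 5957 genes were past 0.5 in size, and whether another pair of libraries would differ as much was not tested.

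**Figure D4:**
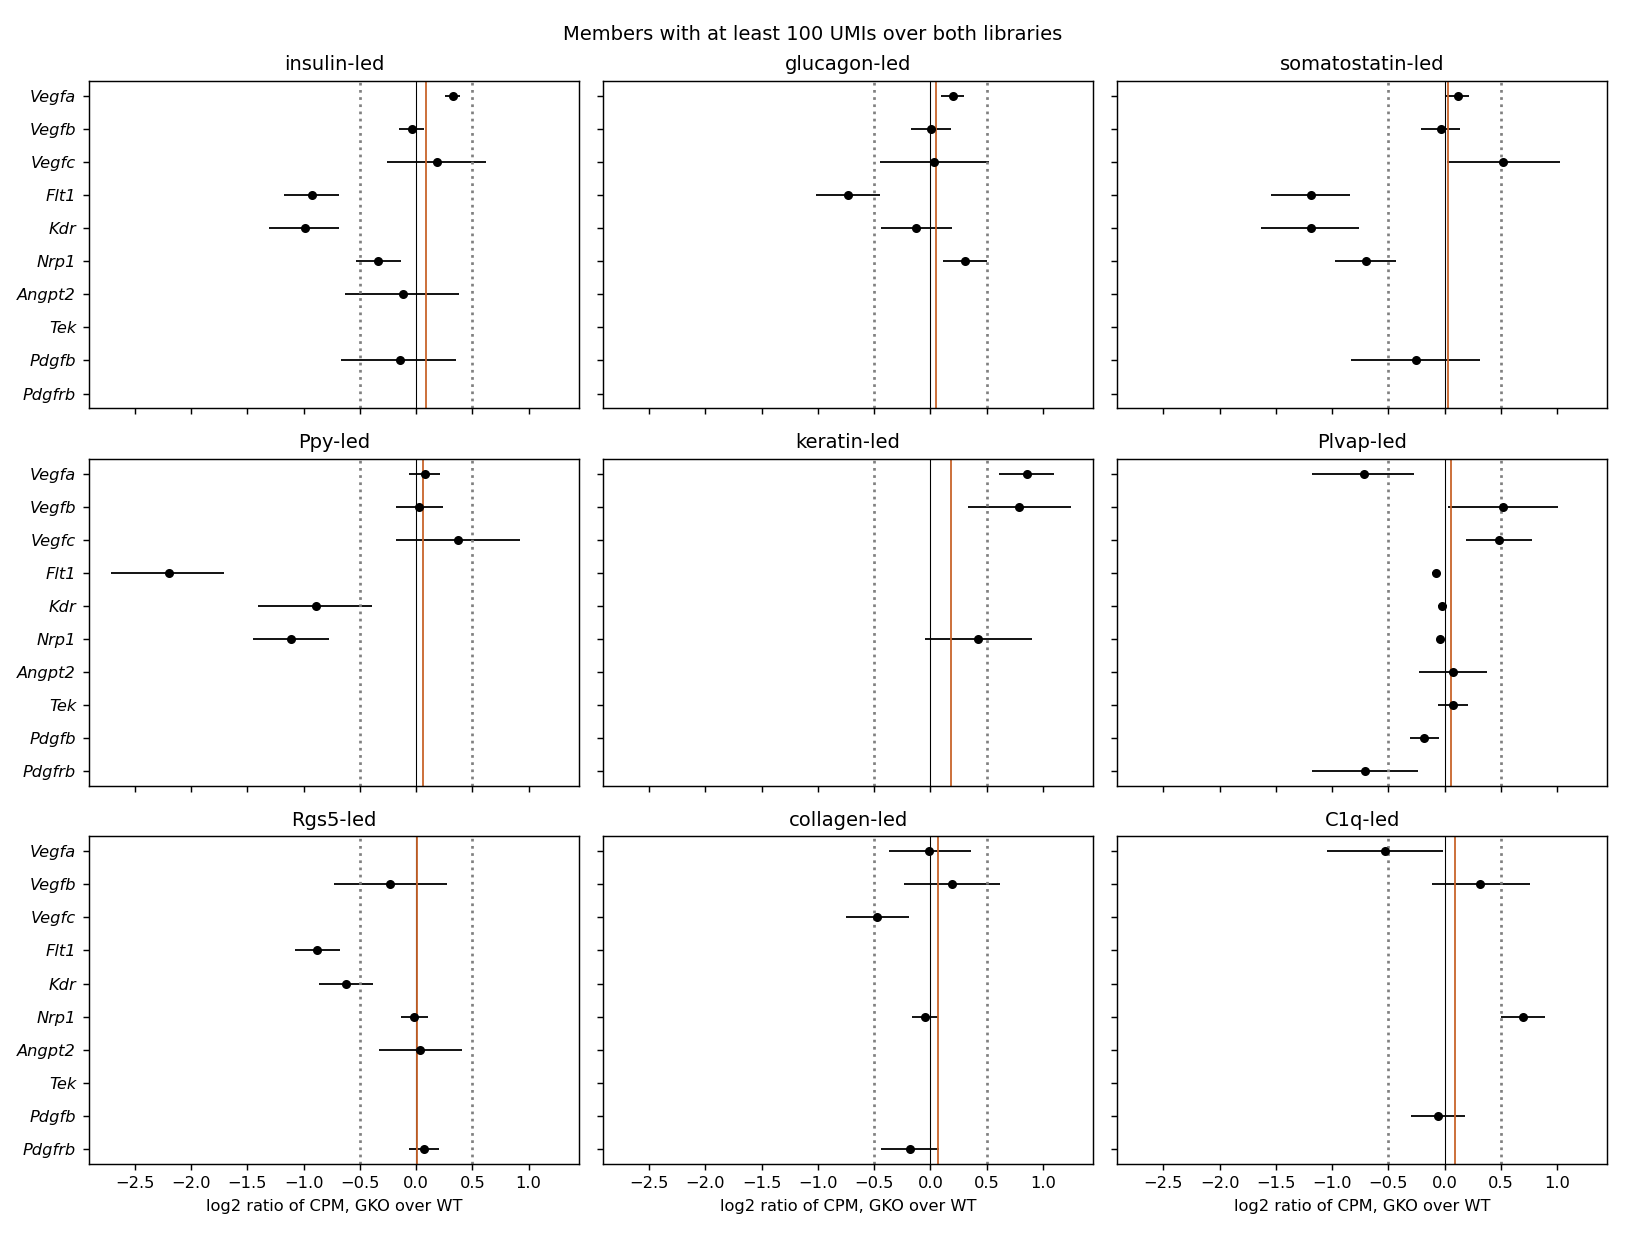
Log2 ratio of CPM, GKO over WT (x axis), with exact 95% intervals, for the genes with at least 100 UMIs over both libraries in each class; dotted lines mark ±0.5 and the orange line the median of all genes. Flt1, Kdr and Nrp1 lie near 0 in Plvap-led barcodes, Vegfa lies above 0 in insulin-led barcodes (0.33) and Nrp1 above 0 in C1q-led barcodes (0.70).

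Low counts of the endothelial receptors were also present in endocrine barcodes, where they were lower in GKO in most classes. Flt1 had 9.78 CPM in WT and 5.15 CPM in GKO in insulin-led barcodes (log2 ratio −0.93, −1.17 to −0.69) and 12.0 and 2.63 CPM in Ppy-led barcodes (−2.19, −2.71 to −1.70). Kdr had 6.36 and 3.20 CPM in insulin-led barcodes (−0.99, −1.30 to −0.69). These UMIs sat in few barcodes that also held Plvap. In insulin-led barcodes, the 40 of 2265 in WT and 8 of 872 in GKO with at least 3 Plvap UMIs held 86.0% and 86.4% of the Flt1 UMIs and 86.7% and 89.5% of the Kdr UMIs. Without them Flt1 stood at 1.40 and 0.710 CPM and Kdr at 0.859 and 0.340 CPM. In Ppy-led barcodes, 8 of 717 in WT and 2 of 669 in GKO held 93.8% and 75.6% of the Flt1 UMIs. The intervals of these ratios treat each UMI as independent and are thus too narrow where so few barcodes hold most UMIs.
The shares of such barcodes were 1.77% and 0.917% in insulin-led, 0.859% and 0.358% in glucagon-led, 1.13% and 0.399% in somatostatin-led and 1.12% and 0.299% in Ppy-led barcodes, in each case lower in GKO. In glucagon-led barcodes they held 94.5% and 94.0% of the Flt1 UMIs. Nrp1 was less confined to them there, with 58.6% and 47.6%, and stood at 10.1 CPM in WT and 15.7 CPM in GKO without them. Free RNA estimated from the hormones that glucagon-led barcodes should lack came to 10.7 CPM (WT) and 13.1 CPM (GKO) for Flt1. That is above the 0.909 and 0.590 CPM read in the barcodes without Plvap, so the estimate was too high for this gene. Keratin-led barcodes showed the same, with 15.6 and 19.6 CPM estimated beside 0.868 and 0 CPM measured.

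The Flt1 and Kdr UMIs of Rgs5-led barcodes also sat mainly in barcodes with Plvap. Flt1 had 276 CPM in WT and 150 CPM in GKO there (−0.88, −1.08 to −0.68) and Kdr 180 and 117 CPM (−0.63, −0.86 to −0.39). Barcodes with a Plvap UMI made up 9.36% (WT) and 10.3% (GKO) of this class, a share that was not lower in GKO. Their median totals were 12195.5 and 7146 UMIs. In the 22 WT and 47 GKO barcodes of this class with a Plvap UMI, Flt1 had 1273 and 1034 CPM and Kdr 842 and 825 CPM. In the 213 and 409 without one, Flt1 had 5.88 and 8.77 CPM and Kdr 0.840 and 3.34 CPM, so these genes were nearly confined to barcodes with Plvap. Nrp1 was also higher with Plvap, at 1326 and 1410 CPM against 381 and 441 CPM without, but was read in both. Pdgfrb went the other way, with 301 (244 to 367) and 316 CPM (262 to 378) in barcodes with Plvap against 485 (446 to 526) and 492 CPM (464 to 521) without.

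**Figure D5:**
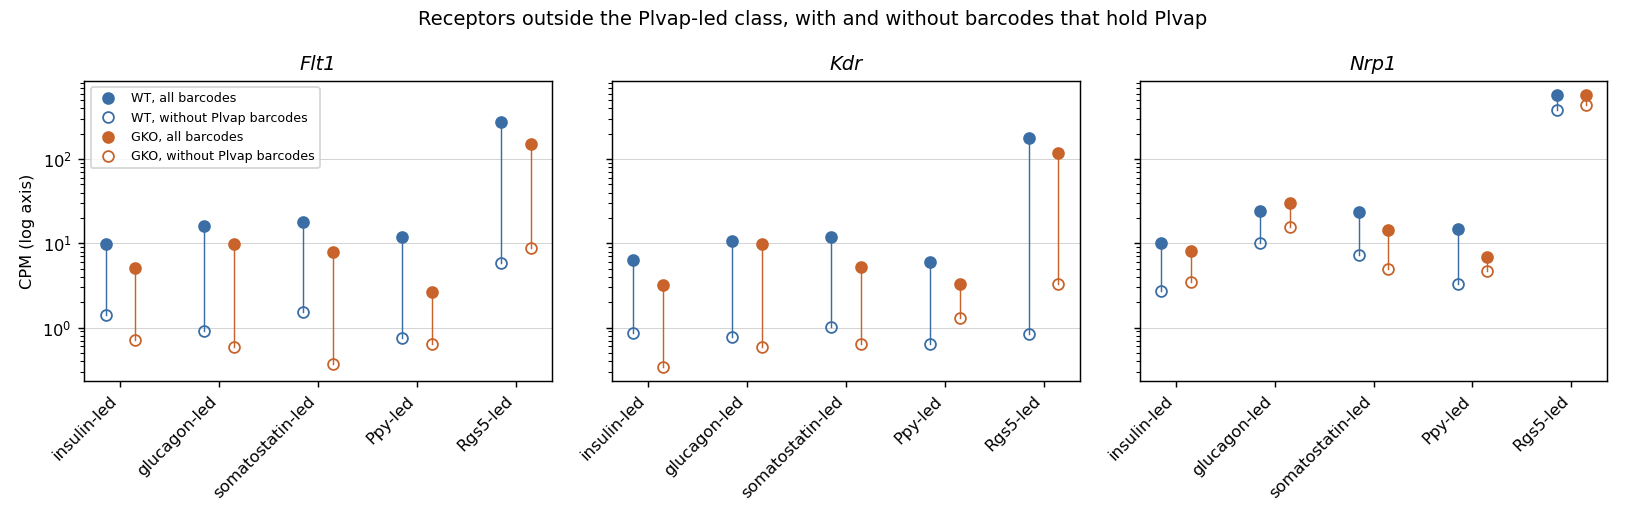
Flt1, Kdr and Nrp1 (y axis, CPM, log axis) in endocrine and Rgs5-led barcodes, with all barcodes (filled) and without those that hold Plvap (open; at least 3 Plvap UMIs in endocrine classes, at least 1 in Rgs5-led). Flt1 in insulin-led barcodes drops from 9.78 to 1.40 CPM in WT and from 5.15 to 0.710 CPM in GKO, whereas Nrp1 in Rgs5-led barcodes goes from 582 to 381 CPM and from 575 to 441 CPM.

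Read against all genes, the members' counts were as follows. In insulin-led barcodes 2 of 8 measured members were past a log2 ratio of 0.5 in size, against 6.38% of all genes, in glucagon-led 1 of 6 against 5.15%, in somatostatin-led 4 of 7 against 4.84% and in Ppy-led 3 of 6 against 4.52%. Of these 10, 9 were ratios of Flt1, Kdr or Nrp1, and the other was Vegfc in somatostatin-led barcodes. Barcodes with at least 3 Plvap UMIs held 60.8% to 95.4% of the Flt1 and Kdr UMIs of these classes. For Nrp1 they held 69.9% in WT and 66.2% in GKO somatostatin-led barcodes and 78.0% and 31.1% in Ppy-led barcodes. Without them Nrp1 in Ppy-led barcodes was higher in GKO, at 3.29 CPM in WT and 4.71 CPM in GKO, the reverse of 14.7 and 6.81 CPM with them. In Plvap-led barcodes 3 of 10 were past it, against 10.2%: Vegfa, Vegfb and Pdgfrb, which had 57 to 134 UMIs per library in this class. In Rgs5-led barcodes the 2 of 6, against 13.4%, were Flt1 and Kdr. In collagen-led barcodes there were 0 of 5 against 13.1%, in C1q-led 2 of 4 against 13.9% (Nrp1 higher, Vegfa lower in GKO) and in keratin-led 2 of 3 against 23.3%.

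Other genes of these pathways were read from lists chosen with earlier results of these data known. Of 11 further ligands and receptors of the VEGF, angiopoietin and PDGF families, 6 had at least 100 UMIs over both libraries in Plvap-led barcodes and none was past 0.5, against 10.2% of all genes, with a median log2 ratio of 0.14 beside 0.05 for all genes. The largest ratios were those of Pdgfd (85.3 and 101 CPM, 0.24), a second ligand of PDGFR-β, Pdgfra (11.2 and 13.2 CPM, 0.24), Pdgfa (21.1 and 24.7 CPM, 0.23) and Nrp2 (131 and 120 CPM, −0.12). Tie1, the orphan partner of TIE2, had 368 and 378 CPM, and Flt4, which encodes VEGFR3, had 133 and 131 CPM, so the receptors of this list also lay close between libraries.
In collagen-led barcodes 3 of 8 were past 0.5, against 13.1% of all genes, all higher in GKO, with a median of 0.26 beside 0.07 for all genes: Pgf, the placental growth factor gene that binds VEGFR1 (24.6 and 59.3 CPM, 1.27, 0.86 to 1.70), Angpt4 (24.2 and 39.2 CPM, 0.70) and Pdgfc (10.6 and 15.8 CPM, 0.58, −0.09 to 1.29). In Rgs5-led barcodes 1 of 6 was past it, near the 13.4% of all genes, with a median of 0.35 beside 0.01: Figf, the gene of VEGF-D (19.8 and 46.1 CPM, 1.22, 0.63 to 1.84). In the same class Pdgfa had 337 and 463 CPM (0.46) and Pgf 133 and 171 CPM (0.36). In insulin-led barcodes 1 of 4 was past it, against 6.38%: Tie1 with 1.26 and 0.274 CPM.

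Of 12 genes known to respond to VEGF or Notch in endothelium, all had at least 100 UMIs in Plvap-led barcodes and 2 were past 0.5, against 10.2% of all genes, with a median of 0.04 beside 0.05 for all genes. The count is not far from that share. Both belong to the apelin pair: Apln had 41.7 CPM (WT) and 67.9 CPM (GKO), a ratio of 0.70 (0.45 to 0.96), and its receptor gene Aplnr had 38.4 and 67.6 CPM (0.82, 0.55 to 1.09). Lower values in GKO were read for Cxcr4 (33.4 and 23.8 CPM, −0.49) and Nid2 (196 and 149 CPM, −0.40). Esm1 had 3327 and 3199 CPM (−0.06) and Dll4 170 and 147 CPM (−0.21). Of 12 genes of the hypoxia response and its factors, 10 were measured in insulin-led barcodes and none was past 0.5, against 6.38% of all genes, with a median of 0.03 beside 0.09 for all genes. Vegfa (0.33) did not pass 0.5 there either. Among them Epas1 had 4.04 and 2.96 CPM (−0.45), Pgk1 5.10 and 3.81 CPM (−0.42), Ldha 2.71 and 3.41 CPM (0.33, an interval that includes 0) and Bnip3 34.1 and 27.4 CPM (−0.31). In Plvap-led barcodes 9 were measured and none was past 0.5, with a median of −0.03.

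Across 19 points, the classes of each library with at least 50 barcodes, the genes whose log2 CPM ran most like that of Kdr were Flt1 (Pearson r = 0.998), Emcn (0.997) and Esm1 (0.997), of 12405 genes. For Pdgfrb they were Abcc9 (0.998), Ndufa4l2 (0.997) and Aspn (0.996). For Vegfa they were Sgms2 (0.958), Ctnnal1 (0.957) and Rsph1 (0.953). The points are classes that share 2 libraries, so these values describe the pattern over classes and carry no test.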

How the data were processed

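Single-cell RNA-Seq libraries of the 10x 3′ kind came from 1 pool of WT and 1 pool of GKO islets. The deposited values are whole-number UMI counts per gene and barcode, made by the authors with Cell Ranger 5.0.1 on mm10 (builds from the submitters' processing notes), without normalization. Coordinates are from GENCODE M21 (GRCm38), promoters from RefSeq. The members and lists were chosen with earlier results of these data known.

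Barcodes with under 500 genes or over 10% mitochondrial UMIs were left out. Vascular classes needed at least 3 marker UMIs and other nonendocrine classes at least 5. Class sums were scaled to CPM. Log2 ratios of GKO to WT were given for genes with at least 100 UMIs over both libraries in a class, with exact Poisson intervals, and shares with exact Clopper-Pearson intervals, all covering counting error only. A count of 0 was set beside the level of 3 UMIs. Named genes were all 10 members, up to 4 genes of each list with the largest ratios, and the 3 genes most like Vegfa, Kdr and Pdgfrb by log2(CPM + 10) among genes with at least 200 UMIs in each library. Further list genes were named for their role after their values were seen. No doublet caller was run; barcodes with mixed markers were left out as an alternative. Cells of 1 pool are not replicates. The intervals were tested only on simulated independent Poisson counts, which cannot show how they hold where UMIs cluster in few barcodes.

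Alternatives changed the limits on barcodes and markers, the CPM total (hormone genes taken out, or TMM factors), free RNA (subtracted, by an estimate too high for Flt1 in classes without Plvap), the weight of barcodes and thinning to 2000 UMIs. Leaving out keratin-led barcodes with over 1% acinar UMIs was added after the data were seen. Scripts used scipy 1.17.1, numpy 2.4.6 and pandas 2.3.3 under Python 3.11.15, figures matplotlib 3.10.9, and TMM factors edgeR 4.0.16 in R 4.3.3.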

Additional observations from a re-analysis of the deposited data

Results flagged for a closer look

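For 3 genes the ratio of GKO to WT had 95% intervals on opposite sides of 0 in different classes, and the difference between classes was not tested. The log2 ratio of Vegfa was 0.86 in keratin-led and −0.72 in Plvap-led barcodes, a difference of 1.57, and the latter rests on 134 and 61 UMIs. Under 10 alternatives the Plvap-led ratio ran from −0.90 to −0.15, and 6 were past 0.5 in size. Hormone UMIs, which Plvap-led barcodes should lack, made up 1.19% of their total in WT and 0.657% in GKO. The ratio of Nrp1 was 0.70 in C1q-led and −1.11 in Ppy-led barcodes, a difference of 1.81, and without barcodes of mixed markers the latter was 0.031 from 8 and 8 UMIs, and without those with at least 3 Plvap UMIs Nrp1 stood at 3.29 (WT) and 4.71 CPM (GKO) there. The ratio of Vegfc was 0.52 in somatostatin-led and −0.47 in collagen-led barcodes, a difference of 0.99. For Vegfc the Plvap-led ratio of 0.48 also lay above 0.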

How the results depend on the processing

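Of 513 recomputed ratios for 55 gene and class pairs, 439 lay within the interval of the reported value, 65 lay outside it without a change of sign of a ratio past 0.5, and 9 had such a change. For the 6 main ratios only 39 of 59 lay within it. These were Vegfa in insulin-led, Kdr, Flt1, Nrp1 and Pdgfb in Plvap-led and Pdgfrb in Rgs5-led barcodes. No paired analysis was possible because each genotype had 1 library.
Vegfa in insulin-led barcodes (0.33) was 0.24 without hormone genes in the total, 0.23 with TMM factors, 0.71 thinned and 0.49 without mixed barcodes. In Plvap-led barcodes TMM factors gave −0.14 (Flt1), −0.082 (Kdr) and −0.10 (Nrp1). At least 1 Plvap UMI gave −0.31, −0.25, −0.24 and, for Pdgfb, −0.39. At least 10 gave 0.0034, 0.063 and 0.047. Leaving out mixed barcodes gave −0.15, −0.084 and −0.092, and thinning gave −0.12 for Flt1. Pdgfrb in Rgs5-led barcodes (0.07) was −0.11 with equal weight for each barcode and −0.10 thinned.
Changes of sign came mostly from few UMIs. Without mixed barcodes Kdr and Nrp1 in Ppy-led barcodes were 1.03 and 0.031, Pdgfrb in Plvap-led barcodes 0.65, and Flt1 and Kdr in Rgs5-led barcodes 0.57 and 1.99, with 1 to 29 UMIs per library. With at least 1 marker UMI, Pdgfrb in Plvap-led barcodes was 0.15. With a leading hormone of at least 25%, Flt1 in glucagon-led barcodes was 1.01 and Kdr in somatostatin-led barcodes 0.31. Thinned, Vegfa in keratin-led barcodes was −0.058. In Plvap-led barcodes the counting intervals reached about 0.04 to either side for Flt1, Kdr and Nrp1 and about 0.3 for Angpt2. They treat each UMI as independent, but UMIs cluster in barcodes, so the ratios are less well resolved than that. The tenth of these barcodes with the most Flt1 held 29.7% (WT) and 28.5% (GKO) of its UMIs. Besides, 1 pool per genotype leaves the spread between mice unknown.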
